A study of Mus musculus with 6 samples.

Results

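The eye-field and progenitor transcription factors are 9 genes, Pax6, Sox2, Sox9, Six3, Six6, Rax, Lhx2, Meis1 and Meis2, chosen by name from the 24062 gene symbols of a retinal RNA-seq count table. All 9 were found in the table. The libraries come from mouse retinae at postnatal day 21, given as C57BL/6 in the labels and as C57BL/6N in the study's methods. The Rb1/p107 DKO group (n = 3) carried Chx10-Cre with floxed Rb1 and null p107 alleles, and the Rb1/p107/Hells TKO group (n = 3) carried the same alleles together with floxed Hells. Both groups therefore lacked p107 in all cells and Rb1 in the Cre lineage, and a retina with intact Rb1 and p107 was not analysed here. Chx10-Cre acts in a mosaic of retinal progenitors, so each retina also held cells that did not recombine.

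The eye field is the patch of anterior neural plate that forms both eyes, and it is specified by homeodomain and related factors that switch each other on. PAX6, RAX, SIX3, SIX6 and LHX2 act there first, SOX2 joins them in the optic vesicle, and MEIS proteins bind DNA together with PBX partners to raise Pax6 expression. The same factors keep retinal progenitors multipotent during neurogenesis. In the mature retina most of them stay on in restricted cell types: Pax6, Six3 and Meis2 in amacrine and other inner retinal neurons, Sox2 in Muller glia and a subset of amacrine cells, and Sox9, Lhx2 and Rax mainly in Muller glia, with Rax also in photoreceptors. Since whole retinae were sequenced, fewer cells of a type and less RNA per cell cannot be told apart in any of the values given here.

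Libraries held between 10343907 and 14203098 counts in all. Values are given as normalized counts, which are counts divided by the library size after TMM scaling, relative to its mean. A log2 fold change is TKO minus DKO, so that a negative value is lower in TKO, and p-values are from edgeR's quasi-likelihood test with Benjamini-Hochberg adjustment over 16904 genes. Hells itself was at 60.8, 68.4 and 83.4 normalized counts in TKO and 678, 523 and 395 in DKO retinae, without overlap. This count covers the whole gene and not the deleted exon alone, and genes of dividing cells fell as well, so the deletion and a lower expression of Hells cannot be told apart here. Rod transcripts were higher in TKO retinae, where 8 rod markers summed to between 26660 and 54130 CPM, against 9085 to 17330 in DKO retinae. CPM are counts per 1000000 of the TMM-scaled library size, so they are not exact shares of a library.

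Sox2, Sox9, Lhx2 and Six3 fell in TKO retinae. Of the 9 factors, these 4 passed an adjusted p of 0.05 and all 4 were lower, where 9.2% of all genes tested were lower at that level. Sox2 and Sox9, at 45.1% and 49.1% of their DKO means, were the 2 factors that met all the criteria for a differentially expressed gene, which add a 2-fold change and a mean count of 10. Of all genes tested, 4.38% met them in this direction, 1.97% in the other and 6.35% in either. The other 5 factors, Pax6, Six6, Meis1, Meis2 and Rax, did not pass, and 0 of the 9 passed in the upward direction in edgeR or DESeq2, where 7.35% of all genes passed upward and 16.6% in either direction in edgeR. The unadjusted p of Rax, the 1 factor with a value above 0, was 0.051 in edgeR and 0.0332 in DESeq2, and within edgeR it was 0.0484 with RLE size factors and 0.0419 with no filter. The fitted values of 8 of the 9 were below 0, with a median log2 fold change of -0.30, against -0.011 over all genes tested, of which 51.2% were below 0. The values of the 2 groups did not overlap in 5 factors, all lower in TKO, where 20.6% of all genes were lower without overlap and 38.6% did not overlap in either direction.

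**Figure D1:**
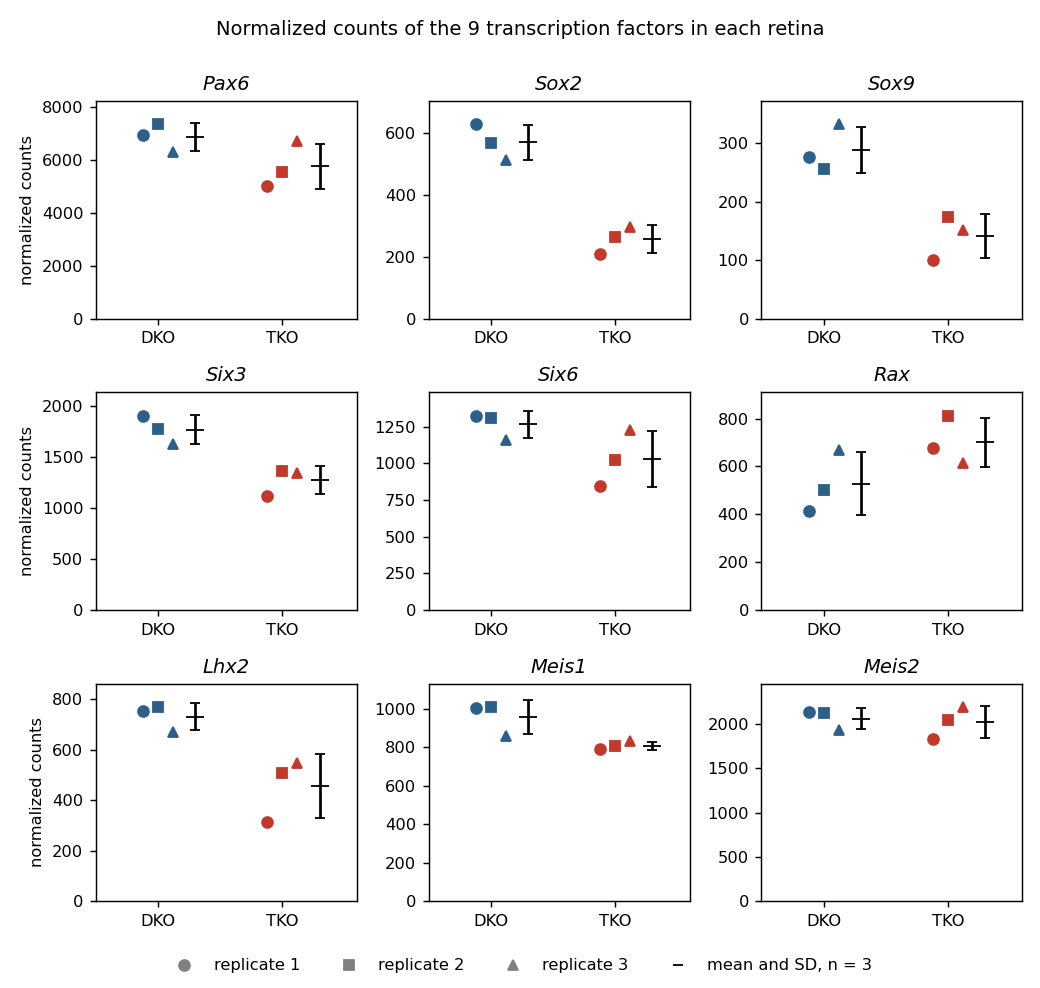
Normalized counts (vertical axes, starting at 0) of each factor in the 3 DKO (blue) and 3 TKO (red) retinae, with marker shapes for replicate numbers and black bars for mean and SD. The TKO points of Sox2, Sox9, Six3, Lhx2 and Meis1 lie below all DKO points, those of Pax6, Six6 and Meis2 overlap them, and Rax is the 1 factor with a higher TKO mean.

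Sox2 encodes an HMG-box factor that maintains neural and retinal progenitors. It is a single-exon gene on chromosome 3 of GRCm38 (34650405 to 34652461, plus strand). Its normalized counts were 209, 264 and 297 in TKO and 628, 566 and 513 in DKO retinae. Each TKO retina was far below each DKO retina. The difference was -1.15 on the log2 scale (standard error, SE, 0.145, 95% interval -1.48 to -0.82, edgeR, adjusted p = 0.00627).

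The 250 bases before the RefSeq start of Sox2 are shown because this factor had the smallest adjusted p of the 9. They lie at chr3:34649745-34649994 of GRCm38.p6 on the plus strand, and capitals mark matches to the SOX letters ACAAAG, the CCAAT letters (here as ATTGG on the other strand) and the MEIS letters TGACAG.
Sox2: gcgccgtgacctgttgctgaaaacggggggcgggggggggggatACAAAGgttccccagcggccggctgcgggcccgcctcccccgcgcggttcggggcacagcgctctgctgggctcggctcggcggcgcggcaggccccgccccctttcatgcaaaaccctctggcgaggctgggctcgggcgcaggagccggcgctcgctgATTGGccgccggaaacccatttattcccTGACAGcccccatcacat

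Sox2 sits on the same strand inside Sox2ot, a long noncoding transcript, and the annotated exons of the 2 genes share 0 bases. Sox2ot had 53.9, 45.3 and 62.6 normalized counts in TKO and 229, 360 and 229 in DKO retinae. It fell as well, with a log2 difference of -2.34 (SE 0.234), with an adjusted p of 0.00464 in edgeR, and its groups did not overlap. Whether its change differs from that of Sox2 was not tested.

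Sox9 encodes an HMG-box factor of the SOXE group that is needed for Muller glia. It lies on chromosome 11 (112782224 to 112787760, plus strand). Its normalized counts were 99.8, 174 and 151 in TKO and 276, 257 and 332 in DKO retinae, so that each TKO retina was below each DKO retina. The difference was -1.02 on the log2 scale (SE 0.208, 95% interval -1.5 to -0.55, edgeR, adjusted p = 0.0155). The adjusted p was 0.0546 in edgeR when DKO replicate 1 was dropped and 0.0513 for DKO replicate 2. Without TKO replicate 1, in which Sox9 was lowest, the log2 fold change was -0.83 and its adjusted p 0.0292 from edgeR.

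Of 11 tested relatives of the factors, 1 passed the test and was lower, near the 9.2% of all genes that passed lower. It was Sox3. This SOXB1 relative of Sox2 had 3.44, 7.37 and 12.3 normalized counts in TKO and 40.5, 13.1 and 38.0 in DKO retinae, with a log2 fold change of -1.98 (edgeR, adjusted p = 0.0471). Its level was low throughout. Sox8, a SOXE relative of Sox9 that is also expressed in Muller glia, had 299, 345 and 449 normalized counts in TKO and 456, 462 and 475 in DKO retinae. This was a log2 difference of -0.35 that did not pass (edgeR, adjusted p = 0.135). Meis3 had -0.11 (edgeR, adjusted p = 0.397). The median of the relatives was -0.35.

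Six3 and Six6 are paralogous homeodomain factors that repress Wnt signalling and cell cycle inhibitors in the forming eye. Six3, on chromosome 17 (85613608 to 85629302, plus strand), had 1120, 1363 and 1340 normalized counts in TKO and 1906, 1771 and 1628 in DKO retinae. The groups did not overlap, and Six3 fell to 72.1% of its DKO mean. The difference was -0.47 on the log2 scale (SE 0.101, 95% interval -0.70 to -0.24, edgeR, adjusted p = 0.0186). With 1 retina left out Six3 passed in 2 of 6 fits. Its adjusted p from edgeR rose to 0.0523 when TKO replicate 1 was dropped, to 0.0544 for TKO replicate 2, to 0.0673 for DKO replicate 1 and to 0.0716 for DKO replicate 2.

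Six6, on chromosome 12 (72939892 to 72944899, plus strand), had 844, 1024 and 1227 normalized counts in TKO and 1327, 1309 and 1162 in DKO retinae. TKO replicate 3 lay above DKO replicate 3, so the groups overlapped. The difference was -0.30 on the log2 scale (SE 0.133, 95% interval -0.60 to 0.0085) and did not pass (edgeR, adjusted p = 0.161). Without TKO replicate 3 the log2 fold change was -0.43 and its adjusted p 0.0309 from edgeR. The interval holds values as low as that of Six3, and a difference between the paralogs was not tested.

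The window upstream of the RefSeq start of Six3 (chr17:85620584-85620833 of GRCm38.p6, plus strand) is shown as that of a second factor that fell. Capitals mark the MEIS letters TGACAG between CCAAT matches on both strands. In the GENCODE annotation this window lies inside the Six3 gene and overlaps an exon of the antisense transcript Gm28528.
Six3: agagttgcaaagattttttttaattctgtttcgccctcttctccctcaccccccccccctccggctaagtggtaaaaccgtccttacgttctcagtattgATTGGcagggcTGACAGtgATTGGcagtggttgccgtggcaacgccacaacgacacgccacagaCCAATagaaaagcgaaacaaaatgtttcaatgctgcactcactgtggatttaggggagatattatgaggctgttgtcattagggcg

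Six3os1 is transcribed from the opposite strand and shares 106 exonic bases with Six3. It had 1500, 1564 and 1806 normalized counts in TKO and 2200, 2015 and 1685 in DKO retinae, which overlap. Its log2 fold change was -0.28 (edgeR, adjusted p = 0.142). Six6 shares 192 exonic bases with the opposite-strand gene 4930447C04Rik, which had a log2 fold change of -0.12 (edgeR, adjusted p = 0.745). Because the strand setting of the counting is not known, reads on the shared bases cannot be assigned.

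Of 21 cofactors of these families, Tle1 and Gmnn fell, Ssbp2 rose and the other 18 did not pass. Among all genes tested, 9.2% passed lower and 7.35% higher, so these counts lie near the shares of all genes. Tle1, a Groucho-type corepressor that SIX3 and SIX6 recruit, had 560, 607 and 647 normalized counts in TKO and 1029, 1030 and 838 in DKO retinae (log2 fold change -0.68, edgeR, adjusted p = 0.00821). Each TKO retina was below each DKO retina. Gmnn encodes geminin, a DNA replication licensing inhibitor that also binds SIX3. It had 66.5, 66.3 and 112 normalized counts in TKO and 249, 203 and 159 in DKO retinae (log2 fold change -1.33, edgeR, adjusted p = 0.0132). All 10 listed genes of dividing cells fell too. The median of the cofactors was -0.17.

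Lhx2 encodes a LIM-homeodomain factor that is needed for optic vesicle growth and, later, for Muller glia. It lies on chromosome 2 (38339281 to 38369733, plus strand). Its normalized counts were 313, 510 and 550 in TKO and 753, 770 and 671 in DKO retinae. The groups did not overlap, and TKO replicate 1 was well below the other TKO retinae. Lhx2 fell to 62.6% of its DKO mean, with a log2 fold change of -0.68 (SE 0.189, 95% interval -1.11 to -0.24, edgeR, adjusted p = 0.0440). Its adjusted p from edgeR was 0.0919 when TKO replicate 2 was dropped, 0.120 for DKO replicate 1 and 0.137 for DKO replicate 2. Without TKO replicate 1 the log2 fold change was -0.47 (edgeR, adjusted p = 0.0419).

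The first of the 2 RefSeq upstream windows of Lhx2 (chr2:38339031-38339280 of GRCm38.p6, plus strand) is shown for contrast. Its GC content is 72.8%, close to that of the Sox2 window at 72.0%, and it holds none of the letters searched.
Lhx2: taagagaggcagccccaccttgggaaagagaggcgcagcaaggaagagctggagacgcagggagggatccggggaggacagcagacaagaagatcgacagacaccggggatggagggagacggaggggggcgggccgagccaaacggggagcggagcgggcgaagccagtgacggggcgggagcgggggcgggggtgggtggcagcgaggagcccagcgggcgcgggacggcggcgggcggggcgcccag

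LIM-homeodomain proteins act through the adaptor LDB1 and its stabilizing partners of the SSBP family. Ldb1, named after its value was seen, had a log2 fold change of -0.18 (edgeR, adjusted p = 0.227). Ssbp2 had 1856, 1758 and 1680 normalized counts in TKO and 1471, 1473 and 1447 in DKO retinae, a rise of 0.27 on the log2 scale (edgeR, adjusted p = 0.0388). Ssbp3 had -0.25 (edgeR, adjusted p = 0.0729).

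Rax, a paired-type homeodomain factor required for the eye field to form, was the 1 factor with a fitted value above 0. It lies on chromosome 18 (65928277 to 65939787, minus strand). Its normalized counts were 677, 813 and 614 in TKO and 412, 502 and 669 in DKO retinae. DKO replicate 3 lay within the TKO range. Raxos1, which was not tested, shares 1604 exonic bases with Rax on the opposite strand, so reads there cannot be assigned. On the log2 scale the difference was 0.41 (SE 0.180, 95% interval -0.0023 to 0.82) and did not pass (edgeR, adjusted p = 0.153). Without DKO replicate 3 it was 0.62, with an adjusted p of 0.0263 from edgeR.

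Relative to Rax, Sox2 was lower in each TKO retina than in each DKO retina. For every 1000 Rax normalized counts there were 309, 325 and 484 of Sox2 in TKO and 1523, 1127 and 766 in DKO retinae. The mean log2 ratio differed by -1.59 between the groups, which did not overlap. For Lhx2 against Rax the ratios were 463, 628 and 896 in TKO and 1826, 1536 and 1003 in DKO retinae. The groups did not overlap here either. Both ratios were chosen after the values had been seen and are a description.

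Pax6, the paired-box and homeodomain factor at the head of the eye field network, had the largest counts of the 9. It lies on chromosome 2 (105668900 to 105697364, plus strand). Its normalized counts were 5034, 5547 and 6710 in TKO and 6941, 7367 and 6300 in DKO retinae. TKO replicate 3 lay above DKO replicate 3, so the groups overlapped. On the log2 scale the difference was -0.25 (SE 0.125, 95% interval -0.54 to 0.033) and did not pass (edgeR, adjusted p = 0.196). Dropping single retinae gave values from -0.37 to -0.17, and the lowest adjusted p from edgeR was 0.0538.

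Elp4, a subunit of the Elongator complex whose introns hold distant Pax6 enhancers, is transcribed from the opposite strand and ends 3662 bases from Pax6. It had 365, 360 and 367 normalized counts in TKO and 506, 481 and 446 in DKO retinae. It fell, with a log2 fold change of -0.39 (SE 0.0924, edgeR, adjusted p = 0.0248). Pax6os1, which overlaps Pax6 on the opposite strand and shares 0 exonic bases with it, had 88.3, 86.3 and 114 normalized counts in TKO and 90.3, 121 and 95 in DKO retinae. Its log2 fold change was -0.087 (edgeR, adjusted p = 0.792).

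Meis1 and Meis2 encode TALE homeodomain factors that pair with PBX proteins. Meis1, on chromosome 11 (18879817 to 19018985, minus strand), had 790, 805 and 832 normalized counts in TKO and 1004, 1010 and 858 in DKO retinae. The groups did not overlap, though DKO replicate 3 lay close to the TKO retinae. Exons of Meis1 share 896 bases with the opposite-strand Gm16140 and 1029 with the same-strand Gm37818, neither of which was tested. On the log2 scale the difference was -0.24 (SE 0.0879, 95% interval -0.44 to -0.042, edgeR, adjusted p = 0.0948) and did not pass. Without DKO replicate 3 it was -0.32, with an adjusted p of 0.0324 from edgeR.

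Meis2, on chromosome 2 (115863064 to 116065839, minus strand), had 1835, 2043 and 2193 normalized counts in TKO and 2132, 2125 and 1927 in DKO retinae. The groups overlapped almost fully. On the log2 scale the difference was -0.027 (SE 0.0909, 95% interval -0.23 to 0.18, edgeR, adjusted p = 0.865), so that a change as large as that of Sox2 lies outside its interval. Among their partners Pbx4, named after its value was seen, had a log2 fold change of -0.90 (edgeR, adjusted p = 0.0718), with groups that did not overlap. Pbx2, Pbx3, Pbx4, Pknox1 and Pknox2 did not pass.

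**Figure D2:**
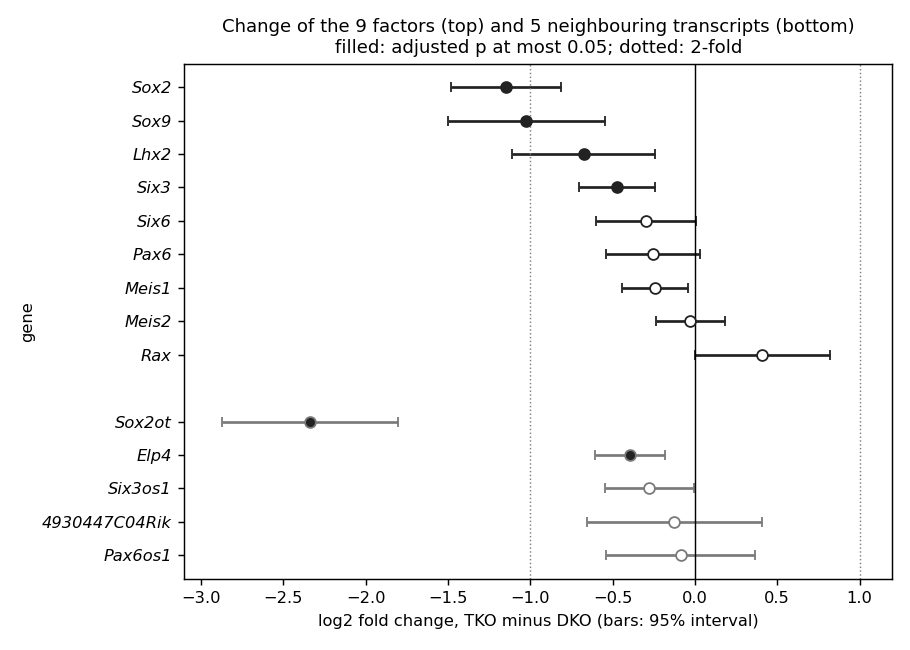
Log2 fold change (horizontal axis, TKO minus DKO) with its 95% interval for the 9 factors and 5 neighbouring transcripts, 3 retinae a group. Filled points passed an adjusted p of 0.05 from edgeR, and dotted lines mark a 2-fold change. Sox2 and Sox9 lie at -1.15 and -1.02, Rax lies at 0.41, and Sox2ot lies at -2.34.

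Levels can be set beside each other only per length, so counts were also divided by the kilobases of annotated exon and by the TMM-scaled size of the library in units of 1000000 counts. On this scale Pax6 was highest in DKO retinae, at 46.4 ± 3.63 (SD, n = 3). Six3 and Six6 followed at 25.7 ± 2.02 and 25.0 ± 1.78, and Sox2 at 21.9 ± 2.21. The ranges of Six3 and Six6, and of Six6 and Sox2, overlapped. Meis2 (13.5 ± 0.763) and Lhx2 (13.2 ± 0.957) also overlapped and lay below Sox2. Meis1 (7.19 ± 0.646), Rax (7.14 ± 1.76) and Sox9 (5.51 ± 0.754) were lowest, and each of these overlapped the next.

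In TKO retinae the order of length-scaled levels was Pax6 (39.0 ± 5.81), Six6 (20.4 ± 3.78), Six3 (18.5 ± 1.94), Meis2 (13.3 ± 1.18), Sox2 (9.86 ± 1.72), Rax (9.48 ± 1.38), Lhx2 (8.24 ± 2.28), Meis1 (6.07 ± 0.159) and Sox9 (2.71 ± 0.724), each as mean ± SD (n = 3). By exon length Sox2 lay above Meis2 in each DKO retina and below it in each TKO retina, while by the longest transcript it lay below Meis2 in all 6 retinae. Six6 and Six3 overlapped, as did Sox2 and Rax, Rax and Lhx2, and Lhx2 and Meis1. The exons that a retina uses were not measured, and dividing by the longest transcript in place of all exons moved Pax6 in DKO retinae to 123 ± 9.59.

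**Figure D3:**
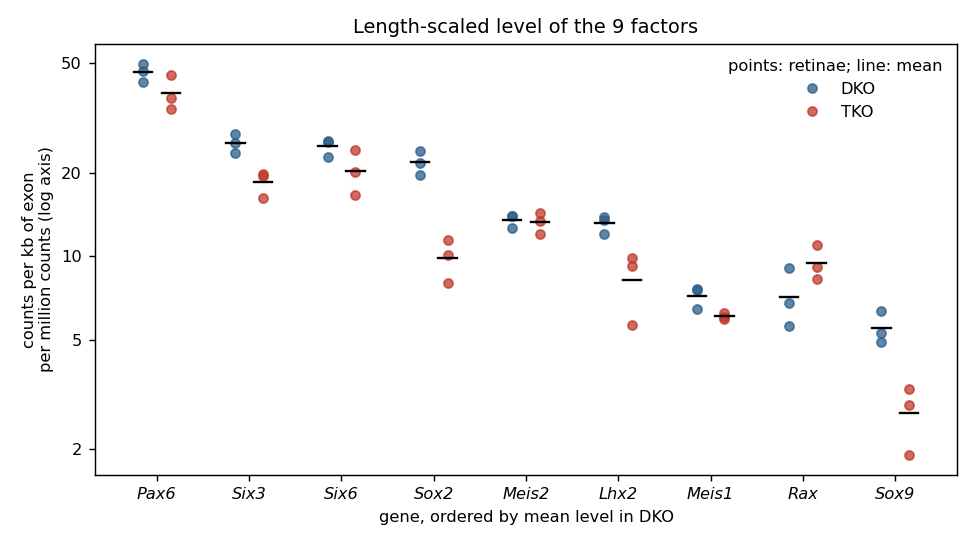
Length-scaled level (counts per kb of exon per 1000000 counts, log axis) of the 9 factors in DKO (blue) and TKO (red) retinae, ordered by the DKO mean, with points for retinae and lines for means. Sox2 falls from a DKO mean of 21.9 to a TKO mean of 9.86, and Sox9 from 5.51 to 2.71.

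The retinae of a genotype varied in a shared way across the factors. In 8 of the 9, TKO replicate 1 had the lowest value of the TKO retinae, and Rax was the exception. In 7 of the 9, DKO replicate 3 had the lowest value of the DKO retinae, the exceptions being Sox9 and Rax, which were highest there. The share of all genes lowest in these retinae was not counted. Genes outside the factors, such as the amacrine markers Gad1 and Tfap2b, were lowest in the same retinae of each group. The coefficient of variation among TKO retinae ran from 2.62% for Meis1 to 27.7% for Lhx2, and among DKO retinae from 5.64% for Meis2 to 24.7% for Rax. The rod markers were highest in the same retinae, with summed CPM of 54130 in TKO replicate 1 and 17330 in DKO replicate 3. The part of the rod transcripts in the levels of the factors was not tested.

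As a description over the 6 libraries, which share the genotype difference, Sox2 and Six3 had a Pearson correlation of 0.98 between their log2 CPM, Pax6 and Six6 of 0.976, and Six3 and Lhx2 of 0.952. Rax correlated negatively with each of the other 8, from -0.895 with Meis1 to -0.448 with Sox9.

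Upstream windows of 250 bases from RefSeq were at hand for 7 of the 9 factors, with 9 windows in all because Pax6 and Lhx2 have 2 starts. The set of sequences used held none for Sox9 or Rax, so these factors were not searched. The letters of an E2F site (TTTCGCGC, TTTGGCGC, TTTCCCGC or TTTGCCGC, on either strand), searched because HELLS has been linked to E2F3, were in 0 of the 9 windows and in 1.86% of all 32851 windows of that length. The SOX letters ACAAAG or ACAATG were in 3 of the 9, those of Pax6 (second start), Sox2 and Meis1, and in 25.2% of all windows. The MEIS letters TGACAG were in 4 of the 9, those of Pax6 (second start), Sox2, Six3 and Six6, and in 15.9% of all windows. In the second Pax6 window the SOX and MEIS matches overlap. The CCAAT letters were in 6 of the 9 and in 33.8% of all windows, and the homeodomain letters TAATTA in 0 of the 9 and in 4.84%. A match is a description of these windows and does not show that a factor binds there.

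Other genes of retinal progenitors fell beside Sox2 and Sox9. Of 24 listed progenitor genes, 14 fell, 1 rose and 9 did not pass the test, where 9.2% of all genes passed lower and 7.35% higher. The median of the progenitor genes was -1.13 on the log2 scale. It was -0.98 once 2 genes at or under 3 counts in a group were set at their bound. Neurog2, a proneural bHLH factor, had 34.4, 50.5 and 63.8 normalized counts in TKO and 391, 407 and 250 in DKO retinae (log2 fold change -2.82, edgeR, adjusted p = 0.00419). Insm1 (-1.76, edgeR, adjusted p = 0.00691), Sox4 (-1.27, edgeR, adjusted p = 0.00700) and the Notch target Hes5 (-2.07, edgeR, adjusted p = 0.00886) fell as well. Neurod1, which acts in photoreceptor precursors and remains on in photoreceptors, rose (0.82, edgeR, adjusted p = 0.0369). Btg2 had 0.15 and did not pass (edgeR, adjusted p = 0.455).

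Of 20 tested genes of the optic vesicle, optic cup and its axes, mainly transcription factors, 4 fell, 3 rose and 13 did not pass. Among all genes tested, 9.2% passed lower and 7.35% higher. Their median was -0.62. Tbx3 (-1.18, edgeR, adjusted p = 0.00780) and Tbx5 (-0.95, edgeR, adjusted p = 0.0133) fell, as did Nr2e1 (-0.62, edgeR, adjusted p = 0.0114), an orphan receptor of progenitors and Muller glia. Tbx2, named after its value was seen, had -0.011 (edgeR, adjusted p = 0.942). Otx2 rose (0.94, edgeR, adjusted p = 0.0106), with 3232, 2703 and 2124 normalized counts in TKO and 1227, 1309 and 1652 in DKO retinae. It is a photoreceptor and bipolar factor in the mature retina. Mab21l1 rose (0.42, edgeR, adjusted p = 0.0441), as did Vax2 (0.56, edgeR, adjusted p = 0.0486), which was named after its value was seen.

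The 10 listed genes of dividing cells fell, with a median of -2.71, where 9.2% of all genes passed lower. Their summed level was 70.5, 101 and 199 CPM in TKO and 975, 708 and 449 in DKO retinae. TKO replicate 1, lowest for 8 of the 9 factors, was also lowest here, and DKO replicate 3 was the lowest of its group. The part of dividing cells in the lower Sox2, Sox9, Lhx2 and Six3 was not tested.

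Muller glia markers went both ways beside the factors that these cells express. Of 10, 4 rose, 2 fell and 4 did not pass, with a median of 0.11, where 7.35% of all genes passed higher and 9.2% lower. Glul, glutamine synthetase, rose (1.15, edgeR, adjusted p = 0.00548), as did Rlbp1 (0.76, edgeR, adjusted p = 0.00821) and Abca8a (0.58, edgeR, adjusted p = 0.0149). Crym (-1.28, edgeR, adjusted p = 0.00603) and Apoe (-0.90, edgeR, adjusted p = 0.0466) fell. Their summed level was 6392 to 6769 CPM in TKO and 5683 to 6124 in DKO retinae. Without Glul the other 9 markers summed to 3662, 4103 and 4636 CPM in TKO and 4443, 4931 and 5048 in DKO retinae, which overlap.

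The ratio of each factor to these markers depended on the marker. Relative to each of the 10 Muller glia markers in turn, Sox2 was lower in TKO retinae without overlap for 8 and overlapped for 2, Crym and Apoe. For every 1000 normalized counts of Glul, Sox2 had 6.04, 8.21 and 11.0 in TKO and 40.0, 43.8 and 37.7 in DKO retinae. For every 1000 of Crym it had 142, 146 and 166 in TKO and 167, 165 and 101 in DKO retinae, which overlap. Sox9 and Lhx2 likewise were lower without overlap relative to 8 of the 10 markers and overlapped for Crym and Apoe. Six3 was lower relative to 8, overlapped for Apoe and was higher without overlap relative to Crym. These ratios were added after the values had been seen, for the factors that had passed lower, and are a description. A lower ratio to a marker that did not fall was therefore likely beforehand.

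Of 11 amacrine markers 0 passed the test in edgeR, and 3 had an unadjusted p under 0.05, 1 of them higher and 2 lower. Their median was 0.068. Gad1 had 0.13 (edgeR, adjusted p = 0.324) and Calb2 0.088 (edgeR, adjusted p = 0.693). Gad2 had -0.47 (edgeR, adjusted p = 0.0697) and Tfap2b -0.39 (edgeR, adjusted p = 0.0860), both named after their values were seen, and the groups overlapped in each. Relative to the 11 markers in turn, Sox2 was lower in TKO retinae without overlap for 11, Sox9 and Lhx2 for 10 and Six3 for 8. These factors were again taken because they had passed lower, so lower ratios were likely beforehand and are a description. The share of all genes with such ratios was not counted. For every 1000 normalized counts of Gad2, Six3 had 784, 844 and 685 in TKO and 710, 750 and 862 in DKO retinae, which overlap. Of 9 astrocyte and gliosis markers, Lcn2 fell (-4.86, edgeR, adjusted p = 0.00733) and 8 did not pass, among them Gfap at -1.46 (edgeR, adjusted p = 0.0566) and Vim at -0.41 (edgeR, adjusted p = 0.146).

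With size factors taken from the 45 listed Muller, amacrine, horizontal, ganglion and bipolar markers alone, a scaling chosen after the data had been seen, all genes had a median of -0.14 on the log2 scale. Sox2 was then at -1.29, Sox9 at -1.16, Lhx2 at -0.82 and Six3 at -0.61, and Rax at 0.29. Meis1, at -0.38, also passed (edgeR, adjusted p = 0.0384), so that 5 of the 9 factors passed and all 5 were lower. This scaling moved the median of all genes down from -0.011. The share of all genes that passed with it was not counted, so the 5 cannot be set beside such a share.

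**Figure D4:**
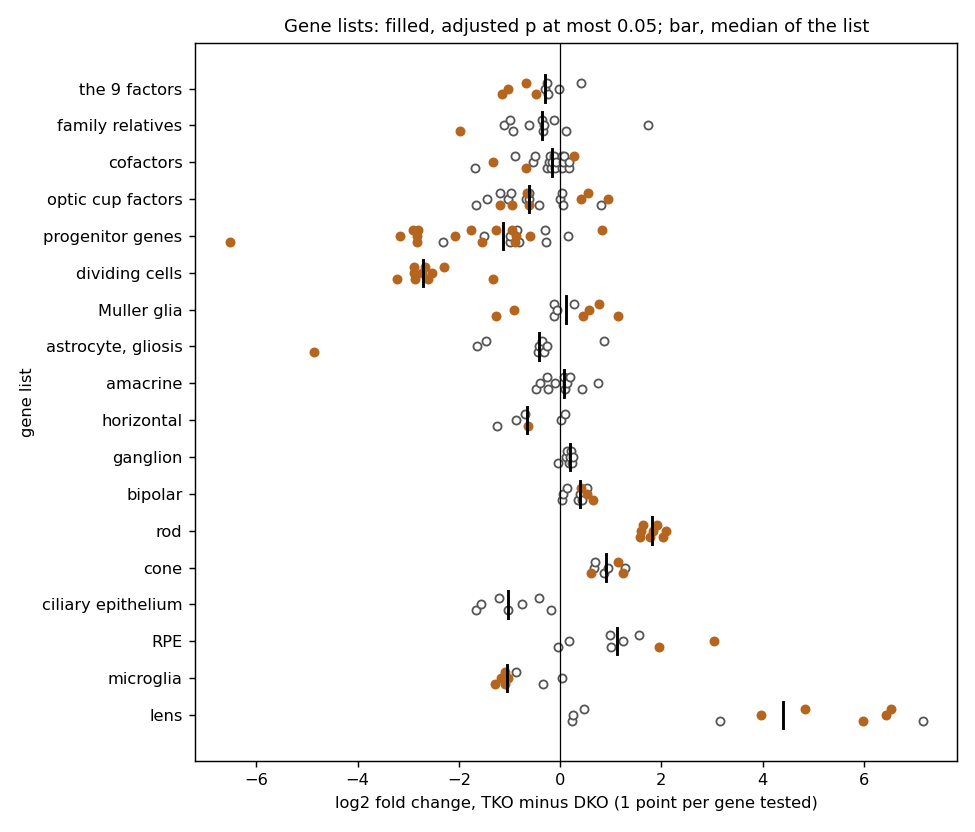
Log2 fold change (horizontal axis, TKO minus DKO) of each tested gene of 18 lists, as fitted, with filled points for genes that passed at 0.05 after adjustment in edgeR and bars for list medians. The 9 factors have a median of -0.30, with the amacrine markers at 0.068 and the progenitor genes at -1.13, and rod markers at 1.81.

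Leaving out 1 retina at a time changed which factors passed, and without TKO replicate 1 or any 1 DKO replicate 1 factor, Sox2, was differentially expressed in place of 2. Sox2 passed in 6 of 6 such fits, with a log2 fold change from -1.26 to -1.02 and adjusted p-values up to 0.0388 from edgeR. Sox9 passed in 4, Lhx2 in 3 and Six3 in 2, and the fitted values of these 4 stayed below 0. Meis1, Six6 and Rax each passed in 1 fit and Pax6 and Meis2 in 0. Without DKO replicate 3, Rax was the 1 factor to pass upward. The number of all genes that passed moved as well, from 2799 with all 6 retinae. It was 1307, 712 and 3590 without TKO replicates 1, 2 and 3, and 811, 647 and 3198 without DKO replicates 1, 2 and 3.

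**Figure D5:**
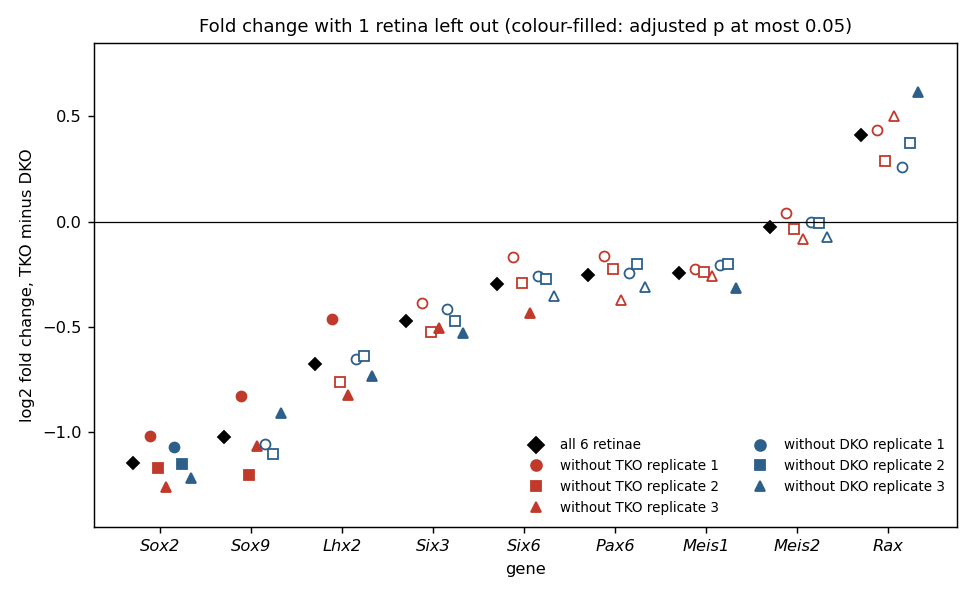
Log2 fold change (vertical axis, TKO minus DKO) of each factor with all 6 retinae (black diamonds) and with 1 TKO (red) or 1 DKO (blue) retina left out. Symbols filled in colour passed at 0.05 after adjustment in edgeR. All 6 points of Sox2 are filled and lie between -1.26 and -1.02, and Meis2 is the 1 factor whose sign changes, at 0.039 without TKO replicate 1.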

How the data were processed

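Retinal RNA at postnatal day 21 was made into stranded mRNA libraries of 3 TKO (Rb1/p107/Hells) and 3 DKO (Rb1/p107) retinae. The deposited values are raw counts per gene symbol, 1 column per retina, made by the authors. Per the paper's methods the reads were aligned to GRCm38 with STAR, up to 3 alignments a read, and counted with HTSeq, while the submitters' processing notes name TopHat2, featureCounts and DESeq2. The 2 sources differ, and the strand setting is not given in the sources used here.

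Genes with a sum under 10 were removed. The counts of 16904 genes were fitted with edgeR 4.0.16 in R 4.3.3 (TMM, glmQLFTest, genotype as the 1 term). Standard errors were the size of the fold change (log2) over the square root of F. A gene was differentially expressed at an adjusted p up to 0.05 with a log2 change of 1 or more in size and a mean count from 10. The script was tested on simulated data. Coordinates and exon lengths come from GENCODE M21 on GRCm38, and upstream sequences from RefSeq on GRCm38.p6.

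The labels do not say whether the libraries of a group come from separate mice, so p-values measure the spread between these retinae. Within a group libraries were not copies of each other, with a chi-square of 8.61 to 25.3 per degree of freedom. After subtraction of group means, same-numbered libraries correlated at 0.0677, -0.0575 and -0.247. These values gave no sign of a pairing by number, but could not exclude one. The 9 factors and the lists were chosen with earlier results of these data known. Named from each list were at most 4 genes with the smallest p among those passing 0.05 and the 2 with the largest mean count. Others named were all 9 factors, their listed neighbours, Hells, the most alike gene over the libraries, and genes said in the text to be chosen after their values were seen. Some genes that this rule names are not reported here. Alternatives were DESeq2 1.42.0, other scalings, filters and dispersion estimates, a replicate block, and each retina left out.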

Additional observations from a re-analysis of the deposited data

How the results depend on the processing

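Sox2, Sox9, Six3 and Lhx2 stayed below 0 in each alternative that was run. Apart from fits that left out a retina, the adjusted p of Sox2, Sox9 and Six3 rose above 0.05 with the replicate block alone. With the replicate block, 0 of the 9 factors were differentially expressed, and the labels do not say whether same-numbered retinae belong together. The log2 fold changes were then -1.16 for Sox2, -1.05 for Sox9, -0.47 for Six3 and -0.71 for Lhx2. Their adjusted p-values from edgeR were 0.0566, 0.0599, 0.072 and 0.0897. In that fit 106 genes in all had an adjusted p of at most 0.05 and 5002 an unadjusted p under 0.05. With robust dispersion estimates Lhx2, at -0.68, had an adjusted p of 0.0505 from edgeR. Meis1 passed at -0.40 with total counts only and at -0.38 with inner-retina marker factors, a scaling added after the data were seen. The median over all genes was -0.17 with total counts and -0.14 with the marker factors, against -0.011. Of the 9 factors, 4 passed an adjusted p of 0.05 alone and 1 met all criteria with an adjusted p of 0.01. DESeq2 called the same number of factors, 2, as edgeR.

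With 1 retina left out, the differentially expressed factors ran from 1 to 2, with 1 when TKO replicate 1 or any 1 DKO replicate was absent. The log2 fold change ran from -1.26 to -1.02 for Sox2, from -1.20 to -0.83 for Sox9, from -0.82 to -0.47 for Lhx2, from -0.53 to -0.39 for Six3, from -0.43 to -0.17 for Six6, from -0.37 to -0.17 for Pax6, from -0.32 to -0.20 for Meis1, from 0.26 to 0.62 for Rax and from -0.084 to 0.039 for Meis2, which turned above 0 without TKO replicate 1. The cause of these moves beyond fewer samples was not tested.

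The number of differentially expressed genes of a list, from 1 retina left out at a time, ran from 0 to 2 for the relatives, 0 to 3 for cofactors, 1 to 4 for optic cup factors, 5 to 16 for progenitor genes, 6 to 10 for dividing cells, 2 to 3 for Muller glia, 1 to 2 for gliosis, 0 to 2 for horizontal cells, 3 to 8 for rods, 0 to 5 for cones, 0 to 2 for RPE, 0 to 2 for ciliary epithelium, 1 to 6 for lens and 0 to 6 for microglia. With the block it was 2 for progenitor genes, 3 for lens and 0 for relatives, cofactors, optic cup factors, dividing cells, rods, cones, RPE and microglia. DESeq2 and total counts each gave 2 for cofactors and 2 for optic cup factors. DESeq2 gave 2 and total counts 1 for ciliary epithelium. For horizontal cells DESeq2, total counts, robust dispersion and the 3 other filters each gave 1, against 0. For gliosis total counts and no filter each gave 2. For cones total counts gave 1 and robust dispersion 0, and for RPE robust dispersion gave 1. At least 10 counts in every library, which removes low genes, left 0 for relatives, RPE and lens.

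With the longest transcript as length, the level per kilobase and 1000000 counts in DKO and TKO retinae became 123 and 103 for Pax6, 38.0 and 27.4 for Six3, 14.6 and 19.4 for Rax, 20.4 and 12.7 for Lhx2, 10.0 and 8.47 for Meis1 and 29.6 and 29.1 for Meis2, so that the order of the factors by level depends on the length used. The depth of 10343907 to 14203098 counts limits low genes such as Sox3 more than the 9 factors.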

Other observations

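Markers of other retinal cell types also differed between the genotypes. The counts of each list in this section stand beside 9.2% of all genes that passed lower and 7.35% that passed higher. All 8 rod markers rose, with a median log2 fold change of 1.81, among them Nrl (2.08, edgeR, adjusted p = 0.00755). Of 8 cone markers 3 rose, among them Arr3 (1.14, edgeR, adjusted p = 0.0279), and of 10 bipolar markers 3 rose, among them Grik1 (0.41, edgeR, adjusted p = 0.0277). Of 8 microglia markers 5 fell, with C1qa at -1.29 (edgeR, adjusted p = 0.0125). Of 6 horizontal cell markers Tpm3, which other cells also express, fell (-0.63, edgeR, adjusted p = 0.0318), and of 8 ganglion cell and 7 ciliary epithelium markers 0 passed in edgeR. At an unadjusted p under 0.05, 1 ganglion cell marker was higher and 2 ciliary markers were lower.

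Lens and RPE markers were uneven among TKO retinae. The 11 lens markers summed to 50.6, 283 and 42.6 CPM in TKO and 8.6 to 8.79 in DKO retinae, and of 10 tested 5 rose. The 8 RPE markers summed to 119, 217 and 62.7 in TKO and 14.9 to 90.7 in DKO retinae, and 2 rose. Lens epithelium also expresses Pax6, Six3 and Sox2. In TKO replicate 2, where lens and RPE markers were highest, Six3 and Sox9 were the highest of the TKO retinae, as was Rax. Pax6 and Sox2 were highest in TKO replicate 3, at 6710 and 297 normalized counts, against 5547 and 264 in TKO replicate 2. Without TKO replicate 2 the log2 fold change was -1.17 for Sox2, -1.20 for Sox9, -0.52 for Six3 and -0.76 for Lhx2.

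Among 11648 genes with a mean count of at least 100, the gene whose log2 CPM over the 6 libraries were most like those of Sox2 was Ptgr1 (Pearson r = 0.9987). For Lhx2 it was Tmeff2 (0.9988), for Six3 Nup62 (0.9975), for Sox9 Klf3 (0.9971) and for Rax Pgm2 (0.9979). With 6 libraries that share the genotype difference, values this high are found for every one of the 9 factors, the lowest being 0.9934 for Meis2 with Tmppe.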
